A study of Homo sapiens with 2 samples.

Results

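The folding machinery of the endoplasmic reticulum (ER) was followed in HSC-1 cells, a line labelled as cutaneous squamous cell carcinoma, after knockdown of the long non-coding RNA LINP1. The genes were chosen by name, with earlier results of these data known, and are 36 of the 44591 genes in the count table. They cover the ER-stress sensors, the chaperones of the lumen, the disulfide isomerases, ER-associated degradation (ERAD) and the translocon. RNA was sequenced from cells that had received a commercial control siRNA (siNC) and from cells that had received an siRNA targeting LINP1 (siLINP1), with 1 library per condition. According to the labels, both were transfected at about 70% confluency, kept for 6 h in DMEM without serum and for a further 24 h with 10% serum. The methods of the study give another confluency and another time of harvest, and they do not name which of the siLINP1 oligonucleotides was sequenced. All values below therefore compare 1 culture with 1 culture, and no p-value can be had. Intervals cover counting error only, except that of a list median, which covers the spread over genes.

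Newly made secretory and membrane proteins enter the ER through the SEC61 channel and are folded there by chaperones, lectins and disulfide isomerases, while failed products are sent back to the cytosol by ERAD. When unfolded proteins accumulate, the sensors IRE1 (gene ERN1), ATF6 and PERK start the unfolded protein response (UPR). IRE1 splices the mRNA of the transcription factor XBP1, ATF6 is cleaved to a transcription factor, and both raise the genes of chaperones and ERAD, whereas PERK phosphorylates eIF2α. In epithelial tumour cells the chaperone GRP78, encoded by HSPA5, is the usual readout of this response.

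Reads counted on genes summed to 18829544 in siNC and 15383081 in siLINP1. LINP1 itself, the target of the knockdown, was read 167 times in siNC and 23 times in siLINP1, and its log2 fold change of siLINP1 over siNC was -2.65 (95% interval -3.35 to -2.02). Of 16 genes of squamous keratinocytes, 10 were under 1 RPKM (read count scaled by gene length and by the library total) in both libraries, among them KRT5, TP63 and CDH1, while ITGB4 had 51.4 and 41.6 RPKM, LAMB3 23.1 and 21.7, SFN 10.7 and 6.82 and KRT14 7.89 and 3.46. Of 9 mesenchymal genes, COL1A2 and COL3A1 were under 1 RPKM in both libraries and VIM was highest with 1519 and 1278 RPKM. Of 12 genes of secretory gland cells, which are rich in ER, the summed reads were 397 in siNC and 7 in siLINP1. They include PGC with 194 and 0 reads, PGA3 with 95 and 0 and LIPF with 82 and 0. Each of the others had 6 reads or fewer in siNC. In siLINP1 9 of the 12 were at 0 reads, and 2 of these, PRSS1 and CELA3A, were at 0 in siNC as well. The 6 plasma cell genes had 2028 and 1588 reads together, nearly all from SDC1 with 2016 and 1575. HSC-1 is a cell line, and reads on these genes do not show that such cells were present. The origin of these reads and their part in the values below were not tested. In RNA from a whole culture, fewer cells that express a gene and less RNA per cell cannot be told apart.

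The sensor group, which includes XBP1 as the factor that IRE1 acts on, lay on the other side of no change from most of the machinery. XBP1, ATF6 and ERN1 were each higher in siLINP1, by log2 fold changes between 0.44 and 0.65, whereas 25 of the 33 other genes were lower. Median-of-ratios size factors set the scale of the counts, and a difference was described as large when it passed 1.5-fold. By this measure 1 of the 36 genes was higher, XBP1, and 3 were lower, SDF2L1, SEC61B and SSR1. Among the 19840 genes with at least 10 reads, 14.4% were more than 1.5-fold higher and 13% were more than 1.5-fold lower. Among the 13336 genes with at least 100 reads, a depth that 35 of the 36 reached, these shares were 8.72% and 6.77%. The shares of the ER genes were thus near or below the background, and large differences were not frequent among them. With scaling by the total count, ATF6 also passed 1.5-fold and SEC61B did not, so that 2 genes were higher and 2 lower. Values also varied with gene length over all genes, and with that trend removed (described further on) SDF2L1 and SEC61B were inside 1.5-fold, which left XBP1 as the 1 higher gene and SSR1 as the 1 lower gene.

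Small differences were mostly downward. In siLINP1, 11 ER genes had a higher scaled count than in siNC and 25 a lower one, while 47.8% of the genes tested were higher by any amount and 52.2% lower. The whole counting interval lay below no change for 24 ER genes and above it for 6, against 25.6% and 23% of the genes tested. Over the genes with at least 100 reads these shares were 33.4% and 28.8%, and a gene with more reads has a narrower interval. The median log2 fold change of the ER genes was -0.15 (95% interval over genes -0.29 to -0.086), beside -0.023 over all genes tested. This interval covers the spread among genes of 1 pair of libraries and does not test a difference between conditions. Scaling by the total count raised every value by 0.082 and left the median at -0.068, while the count of 11 higher and 25 lower genes was unchanged under that scaling and under TMM factors. The ER genes together took 0.629% of the counted reads in siNC and 0.594% in siLINP1.

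**Figure D1:**
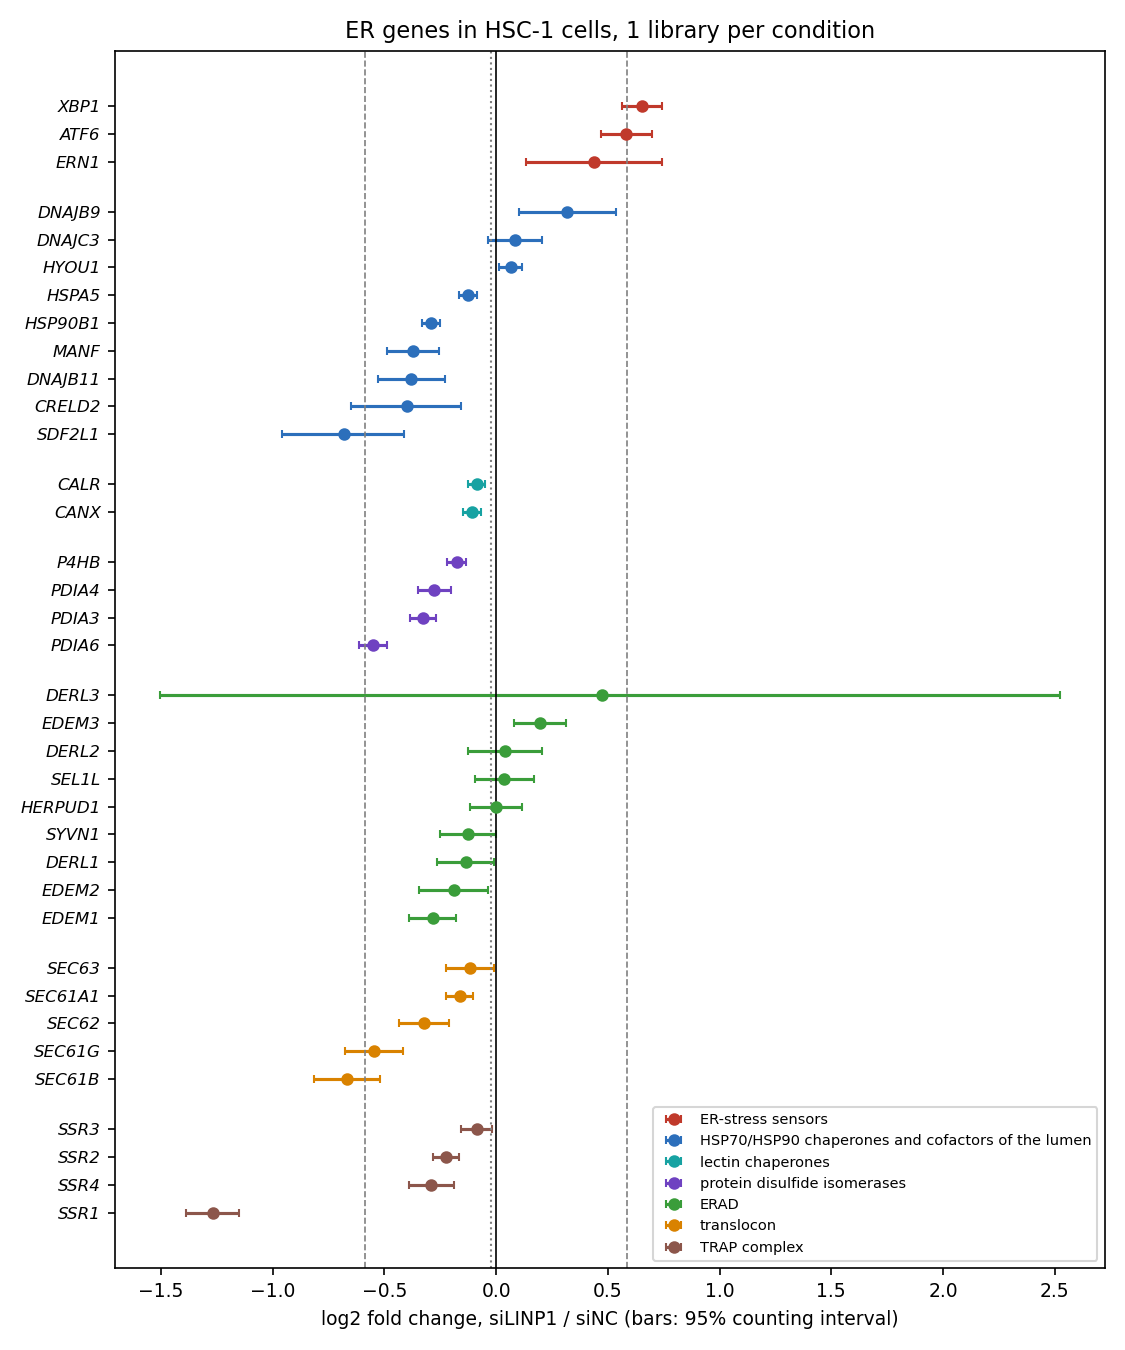
Log2 fold change of siLINP1 over siNC for the 36 ER genes, grouped by role and coloured accordingly, with bars for the 95% counting interval (1 library per condition). Dashed lines mark 1.5-fold, the solid line no change and the dotted line the median of all genes tested (-0.023). The 3 sensors lie to the right of no change, and SSR1 lies furthest to the left at -1.27.

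Per length, the ER genes covered a wide range of levels in both libraries. CALR, which encodes the lectin chaperone calreticulin, was read most, with 342.8 RPKM in siNC and 341.7 in siLINP1. SSR2, a subunit of the translocon-associated protein (TRAP) complex, followed with 264.0 and 239.1 RPKM. HSP90B1, P4HB and HSPA5 came next in both libraries. In each library 7 genes were above 100 RPKM and 7 were below 10 RPKM, with a median of 32.4 RPKM in siNC and 30.8 in siLINP1. XBP1 stood at rank 16 in siNC and rank 8 in siLINP1, and SSR1 at rank 27 and rank 34, the widest shifts in either direction. DERL3, a derlin found mostly in secretory tissues, was last with 5 and 6 reads. RPKM is scaled by the total count, so its ratios sit slightly above the log2 fold changes given elsewhere.

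**Figure D2:**
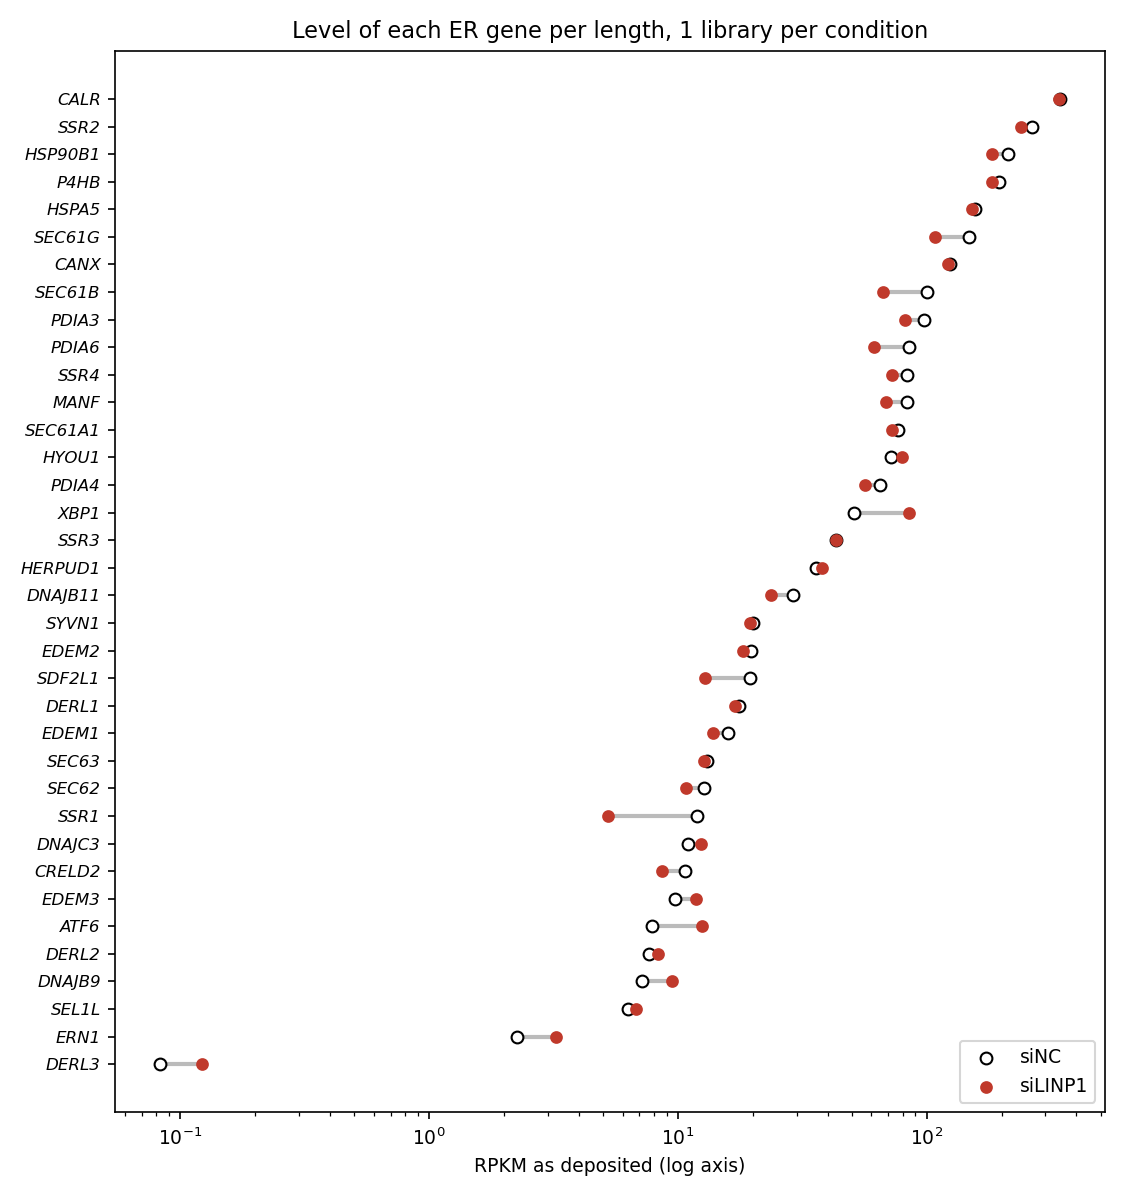
Deposited RPKM of each ER gene on a log axis, in siNC (open circles) and siLINP1 (filled circles), ordered by the level in siNC with 1 library per condition. CALR is highest at 342.8 and 341.7 RPKM, and XBP1 moves from 50.8 to 84.6 RPKM.

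XBP1, the transcription factor spliced by IRE1, occupies chr22:29190548-29196560 (GRCh37, minus strand). XBP1 had 1742 reads in siNC and 2369 in siLINP1, which is 50.8 and 84.6 RPKM. On the log2 scale this was a difference of 0.65 (95% interval 0.56 to 0.74) after scaling, a fold of 1.57. Of the 13336 genes with at least 100 reads, 941 had a larger value, so a difference of this size was not rare. The count sums the unspliced and the spliced mRNA, whose difference decides whether the active factor is made. The segment missing from the spliced form is shown here because neither the gene count nor the primers of the study for XBP1 can see it.
XBP1 segment: GCAGCActcagactacgtgcacctct
This segment of 26 bases lies in a coding exon on the minus strand at chr22:29192116-29192141 of GRCh37, and 1 of the 4 annotated coding transcripts with this gene name lacks it. The capitals mark 6 bases that also follow directly after it, so the exact ends cannot be placed from the transcript alone. Its loss shifts the reading frame. The primer pair of the study for XBP1 lies downstream, in the direction of transcription.
XBP1 forward: gagtctgatatcctgttgggcatt
XBP1 reverse: atgacgtccccactgacagaga
The forward primer crosses an exon junction, from chr22:29192035-29192037 to chr22:29191700-29191720, and the reverse primer matches the plus strand at chr22:29191564-29191585, in a coding exon. Both forms of the mRNA hold these sequences.

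ATF6, whose protein is cleaved in the Golgi under stress, occupies chr1:161736034-161933860 (plus strand). ATF6 had 1116 reads in siNC and 1446 in siLINP1, which is 7.85 and 12.5 RPKM, with a log2 fold change of 0.58 (95% interval 0.47 to 0.70), just short of 1.5-fold. ERN1, which encodes IRE1, occupies chr17:62120390-62207502 (minus strand) and was read rarely. It had 170 and 199 reads, or 2.25 and 3.23 RPKM, and its log2 fold change was 0.44 (95% interval 0.13 to 0.74). The 3 sensors did not differ from each other beyond counting error, since the log2 fold change of XBP1 exceeded that of ATF6 by 0.070 (95% interval -0.076 to 0.22) and that of ERN1 by 0.22 (95% interval -0.10 to 0.53). With the trend with length removed, XBP1 exceeded ATF6 by 0.27, more than the upper end of that interval. EIF2AK3, which encodes PERK, had 227 and 274 reads and a log2 fold change of 0.48.

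The direct comparison of the sensors with GRP78 does not depend on how the libraries are scaled. HSPA5 had 11703 reads in siNC and 9274 in siLINP1, which is 156.6 and 151.9 RPKM. The log2 fold change of HSPA5 was -0.13 (95% interval -0.17 to -0.087). The log2 fold change of XBP1 exceeded that of HSPA5 by 0.78 (95% interval 0.68 to 0.88). The same difference was 0.71 for ATF6 (95% interval 0.59 to 0.83) and 0.56 for ERN1 (95% interval 0.26 to 0.87). Per length, XBP1 stood at 0.325 of the level of HSPA5 in siNC and at 0.557 in siLINP1. In all, 22 pairs within complexes or pathways were set against each other in this way, and the interval left out 0 for 12 of them. By qPCR the study reported higher GRP78 and XBP1 mRNA after LINP1 knockdown in HSC-1 cells, whereas HSPA5 was slightly lower in the libraries sequenced. The qPCR primer pair for GRP78 lies in coding exons of HSPA5 and is shown to place that assay on the gene.
GRP78 forward: tgaaagacccctgacaaaagaca
GRP78 reverse: ttcctcagcaaacttctcagcat
The forward primer matches the minus strand at chr9:127999410-127999432 and the reverse primer the plus strand at chr9:127999183-127999205 of GRCh37.

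The promoters of these genes show the elements through which ATF6 and XBP1 are known to act, and they are given because genes with the same element had values on both sides of no change. The ER stress element (ERSE) was searched as CCAAT and CCACG with any 9 bases between them, its variant ERSE-II as ATTGG and CCACG with any 1 base between them, and the UPR element (UPRE) as TGACGTGG, on both strands, in the 250 bases before and 50 bases after each start in the RefSeq promoter table (GRCh38.p14). A promoter was found for 33 of the 36 genes, not for PDIA3, DERL1 and DERL3. Counted per gene, ERSE was present for 7 of the 33, against 0.0916% of all 27305 gene symbols of the table, and ERSE-II for 3, against 0.0696%. Genes and elements were both chosen as known parts of the UPR, so comparisons with all gene symbols describe the promoters and test nothing. Per promoter the shares were 0.0769% and 0.0541% of 35116. In the sequences below the capitals mark the fixed letters of the element, read in the direction of the element.
XBP1 ERSE: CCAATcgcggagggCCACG
HSPA5 ERSE: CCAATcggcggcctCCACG
HSP90B1 ERSE 1: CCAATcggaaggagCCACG
HSP90B1 ERSE 2: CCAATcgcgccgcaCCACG
CALR ERSE: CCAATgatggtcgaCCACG
CANX ERSE: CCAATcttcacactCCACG
PDIA6 ERSE: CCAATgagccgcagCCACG
CRELD2 ERSE: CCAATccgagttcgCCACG
HYOU1 ERSE-II: ATTGGaCCACG
HERPUD1 ERSE-II: ATTGGgCCACG
SDF2L1 ERSE-II: ATTGGtCCACG
The element of XBP1 lies at chr22:28800603-28800621 and that of HSPA5 at chr9:125241391-125241409, both on the minus strand of GRCh38.p14 and in the direction of the gene. HSP90B1 has its first site at chr12:103930216-103930234 on the plus strand and another at chr12:103930321-103930339 on the minus strand. The site of PDIA6 lies at chr2:10812853-10812871 and that of SDF2L1 at chr22:21642114-21642124, both on the minus strand. HYOU1 holds the ERSE-II shown at chr11:119057380-119057390 and again at chr11:119057274-119057284, on the plus strand. UPRE was found for 4 genes, HYOU1, SEC62, SSR3 and SSR4, against 0.927% of all gene symbols and 0.729% of all promoters, and the UPRE of HYOU1 overlaps its ERSE-II.

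Of the 10 genes with ERSE or ERSE-II, 3 were higher and 7 lower in siLINP1, against 47.8% and 52.2% of the genes tested. Their log2 fold changes ran from -0.68 for SDF2L1 to 0.65 for XBP1. Their median of -0.12 stood beside -0.18 for the 23 genes without an exact match in the bases searched. Elements with a changed letter or further from the start were not searched, so these 23 genes may hold such elements. XBP1 and HSPA5 have the same element at a similar distance from the start, 52 and 66 bases upstream, and the log2 fold changes were 0.65 and -0.13. A match of letters is a description of the promoter and does not show that a factor was bound there.

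The HSP70 and HSP90 chaperones of the lumen and their cofactors were lower in 6 of 9 cases, against 52.2% of the genes tested. The median log2 fold change of the 9 was -0.29, or -0.12 with the trend with length removed. HSP90B1, which encodes GRP94, had 11403 reads in siNC and 8066 in siLINP1, a value of -0.29 (95% interval -0.33 to -0.25). SDF2L1, a partner of the J-protein ERdj3 at chr22:21996542-21998588 (plus strand), had 321 and 173 reads and was 1.60-fold lower, at -0.68 (95% interval -0.96 to -0.41). DNAJB11, which encodes ERdj3, had a value of -0.38 from 926 and 616 reads. These partners thus lay on the same side. CRELD2 and MANF, small luminal proteins that cells also secrete under ER stress, stood at -0.40 and -0.37. On the other side, DNAJB9, which encodes ERdj4 and is a textbook target of spliced XBP1, had 342 and 369 reads and a value of 0.32 (95% interval 0.10 to 0.54). HYOU1, the exchange factor GRP170, stood at 0.065, and the interval of DNAJC3, the co-chaperone P58IPK, held no change at 0.085. HYOU1 overlaps a gene of the opposite strand that had 361 and 316 reads. The strand setting of the counting is not given in the sources used here, so reads of both cannot be told apart.

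The lectin chaperones were close to no change. CALR had 12336 reads in siNC and 10046 in siLINP1, a log2 fold change of -0.087 (95% interval -0.12 to -0.049). CANX, calnexin, had 11559 and 9285 reads, a value of -0.11 (95% interval -0.15 to -0.067). With scaling by the total count these values were -0.0046 and -0.024, and with the trend with length removed CALR stood at 0.025 and CANX at -0.13.

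All 4 disulfide isomerases were lower, under each of the 3 scalings, where 52.2% of the genes tested were lower with size factors. P4HB, the founding protein disulfide isomerase, had 9480 and 7253 reads and the smallest difference, -0.18 (95% interval -0.22 to -0.13). PDIA3, which works with the lectins, stood at -0.33 and PDIA4 at -0.28. PDIA6 had 5544 and 3274 reads, a value of -0.55 (95% interval -0.61 to -0.49) and 1.46-fold lower, just inside the threshold. It overlaps ATP6V1C2 on the opposite strand over 1720 bases, and that gene had 1359 and 704 reads. PDIA3 has a processed copy, PDIA3P1, with 98 and 97 reads.

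The ERAD genes were the most mixed group, with 5 higher and 4 lower and a median log2 fold change of 0.00017. This split was near that of all genes tested, 47.8% higher and 52.2% lower. For 5 of the 9 the interval held no change, as it did for 10202 of the 19840 genes tested. HERPUD1, an ER membrane protein of the degradation complex and a common marker of the UPR, had 1296 and 1121 reads, a fold of 1.00 after scaling. SEL1L and SYVN1, the adaptor and the ubiquitin ligase (HRD1) of the same complex, stood at 0.037 and -0.13, and their difference of 0.16 was within counting error (95% interval -0.020 to 0.35). DERL1 and DERL2, which help move substrates out of the ER, had values of -0.14 and 0.039, and their interval of difference also held 0. DERL3, with 5 and 6 reads, had a value of 0.47 with an interval from -1.50 to 2.52, which is no information on its direction.

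The EDEM genes, which act in the degradation of misfolded glycoproteins, separated in part, with EDEM3 above EDEM1 and EDEM2. EDEM1 had 1846 reads in siNC and 1311 in siLINP1, a log2 fold change of -0.28 (95% interval -0.39 to -0.18). EDEM2 stood at -0.19 and EDEM3 at 0.20, with 1232 and 1220 reads. EDEM1 and EDEM2 differed by -0.094, within counting error (95% interval -0.28 to 0.093). The log2 fold change of EDEM1 was below that of EDEM3 by -0.48 (95% interval -0.63 to -0.32), and that of EDEM2 by -0.39 (95% interval -0.58 to -0.19), or by -0.23 with the trend with length removed.

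All 5 translocon genes were lower, against 52.2% of the genes tested. Their median log2 fold change was -0.32, or -0.18 with the trend with length removed. SEC61B, the beta subunit of the channel, occupies chr9:101984570-101992901 (plus strand). SEC61B had 1057 reads in siNC and 576 in siLINP1, a value of -0.67 (95% interval -0.82 to -0.52) and 1.59-fold lower. SEC61G, the gamma subunit, had 1303 and 772 reads and a value of -0.55. SEC61A1, which forms the pore, had 5240 and 4048 reads and a value of -0.16. As counted, the value of the pore subunit was above those of its small partners, by 0.50 over SEC61B (95% interval 0.34 to 0.66) and by 0.38 over SEC61G (95% interval 0.24 to 0.53). The gene lengths are 3636 bases for SEC61A1, 562 for SEC61B and 466 for SEC61G. With the trend with length removed SEC61A1 stood at -0.15, and the differences were 0.14 over SEC61B and -0.010 over SEC61G, so the gap to SEC61G was not kept. SEC62 stood at -0.32 and SEC63, its partner in post-translational import, at -0.11 with 1600 and 1278 reads (95% interval -0.22 to -0.0077). SEC61A1 overlaps RUVBL1 of the opposite strand, which had 2459 and 1991 reads.

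SSR1 stood apart from the rest of the TRAP complex, which sits beside the SEC61 channel and helps some proteins enter. It occupies chr6:7281376-7313547 (minus strand) and encodes the alpha subunit. SSR1 had 2196 reads in siNC and 789 in siLINP1, which is 11.9 and 5.25 RPKM. Its log2 fold change of -1.27 (95% interval -1.39 to -1.15), 2.41-fold lower, was the lowest of the 36 genes, and 53 of the 13336 genes with at least 100 reads were lower still. The other subunits were closer to no change: SSR2 had 5587 and 4135 reads (-0.22), SSR3 had 3748 and 3054 (-0.086, 95% interval -0.16 to -0.017), and SSR4 had 1881 and 1331 (-0.29). The log2 fold change of SSR1 differed from those of SSR2, SSR3 and SSR4 by -1.04, -1.18 and -0.98, with intervals that lay between -1.32 and -0.82. SSR1 and SSR3 were at a ratio of 0.276 per length in siNC and 0.122 in siLINP1. The only gene overlapping SSR1 had 0 and 2 reads. SSR4 overlaps IDH3G of the opposite strand over 349 bases, and IDH3G had 1377 and 824 reads.

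The siRNAs themselves were searched in the 3′UTR of each ER gene, because SSR1 has a 3′UTR of 8721 bases in the longest transcript. The seed of an siRNA guide strand, its bases 2 to 8, can pair with such sites as a microRNA does. The siRNA sequences of the study are shown with the bases that the seed pairs with in capitals.
siLINP1_01: ccaactgcgggACTTCAGa
siLINP1_02: cactctccagcCTGCAAGa
A site for siLINP1_01 was present in 6 of the 36 genes, DNAJC3, PDIA3, DERL3, EDEM1, SEC62 and SSR1, against 18.6% of 11324 genes with at least 100 reads. A site for siLINP1_02 was present in 6, ERN1, DNAJB11, CANX, EDEM1, SEC61A1 and SEC62, against 15%. The site of SSR1 is for siLINP1_01 and is shown because SSR1 had the largest difference of the list. It is not known whether siLINP1_01 was the siRNA used for the sequenced library.
SSR1 site: aactgttgatcACTTCAGt
Its 7 paired bases lie on the minus strand at chr6:7282125-7282131 of GRCh37, and 8 of the 19 bases shown are those of the siRNA target. The median log2 fold change was -0.22 over the 10 genes with a site for either siRNA and -0.13 over the 26 without. Over all genes with and without such a site the medians were -0.0031 and -0.047, in the opposite order. The groups with and without a site were not matched for length, and values varied with gene length over all genes (described further on). The part of these sites in the value of SSR1 was not tested.

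The short genes of the ER were the lowest as a group, SSR1 aside. The 4 ER genes with a gene length under 1000 bases in the table, SDF2L1, MANF, SEC61B and SEC61G, had a median log2 fold change of -0.61. For the 13 genes of at least 4000 bases the median was 0.037, and the lengths between gave -0.22 and -0.18. Protein-coding genes with at least 100 reads showed the same order, with a median of -0.35 for 427 genes under 1000 bases and of 0.049 for 4922 genes of at least 4000 bases. Across 35 ER genes the correlation of log2 fold change with log10 length was 0.27 (Pearson) and 0.42 (Spearman), and without SSR1 it was 0.51 and 0.55. These points share 1 pair of libraries. After a trend with length over 11820 protein-coding genes was removed, SEC61G stood at -0.14, SEC61B at -0.29, SDF2L1 at -0.39 and MANF at -0.099, all inside 1.5-fold. The sensors then stood at 0.78 for XBP1, 0.50 for ATF6 and 0.44 for ERN1, SSR1 at -1.38 and PDIA6 at -0.53. The part of library preparation in the trend with length was not tested.

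**Figure D3:**
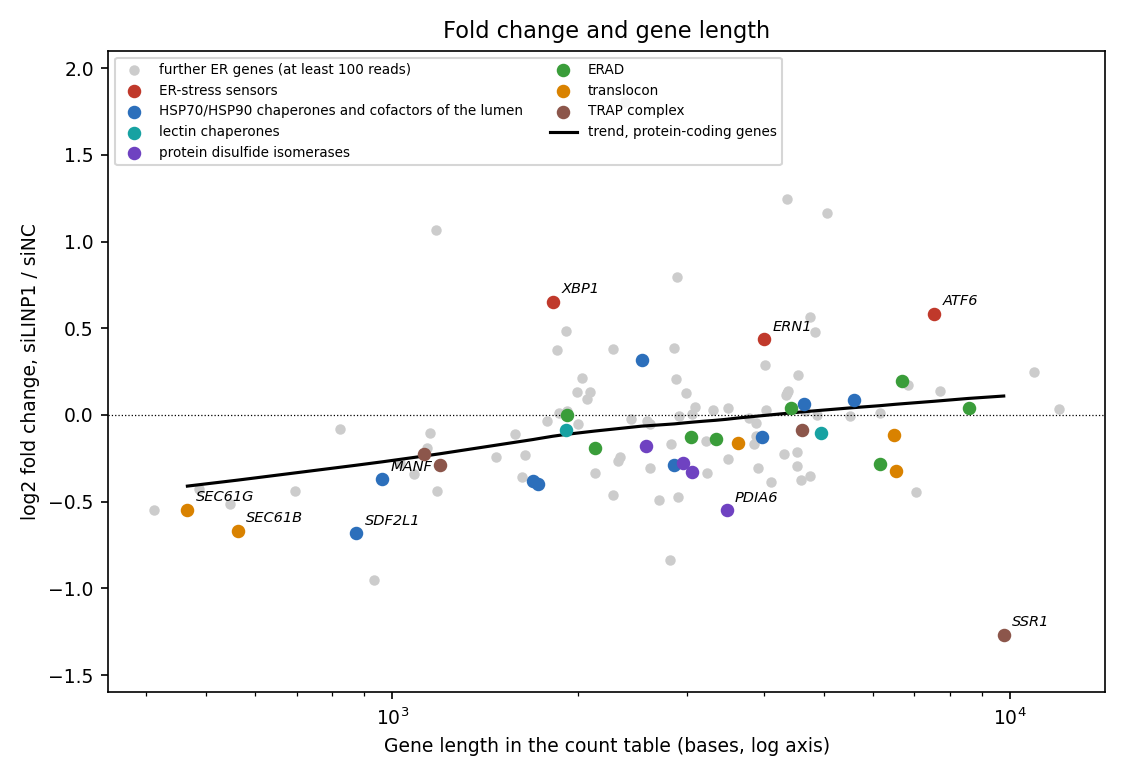
Log2 fold change of siLINP1 over siNC against gene length (bases, log axis) for the 35 ER genes with at least 100 reads, coloured by role, and for the further ER genes with at least 100 reads in grey. The black line is the trend over 11820 protein-coding genes. SEC61G, SEC61B, SDF2L1 and MANF lie at the short end with values between -0.68 and -0.37, while SSR1 lies far below the line at the long end.

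A wider list of 84 genes of the same pathways, written with earlier results of these data known, gives the surroundings of the 36. Of these, 83 had at least 10 reads, 5 were more than 1.5-fold higher and 3 more than 1.5-fold lower, and their median log2 fold change was -0.032, or 0.0083 with the trend with length removed. Over all genes tested 14.4% were more than 1.5-fold higher and 13% more than 1.5-fold lower, so the list held no excess of large differences. The genes split as 35 higher and 48 lower, beside 47.8% higher and 52.2% lower over all genes tested. With scaling by the total count they split as 45 and 38, beside 11020 higher and 8820 lower of the 19840 genes tested.

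Among 13 further genes of UPR signalling, 10 were higher and 3 lower, against 47.8% and 52.2% of all genes tested. The 3 that were more than 1.5-fold higher, against 14.4% of all genes tested, are known as targets of the PERK branch. DDIT3, the transcription factor CHOP, had 1965 and 3558 reads (1.07), PPP1R15A, the phosphatase subunit GADD34, had 6028 and 18205 (1.80), and TRIB3 had 2549 and 3820 (0.79). ATF6B, the paralog of ATF6, was lower at -0.30 with 939 and 658 reads. CREB3L1, an ER-bound transcription factor of secretory and matrix-producing cells, had 47 and 5 reads, a value of -3.02 (95% interval -4.71 to -1.70).

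Among 23 further chaperones and isomerases, 12 were higher and 11 lower, against 47.8% and 52.2% of all genes tested. GANAB, a subunit of glucosidase II that trims N-glycans for the lectins, had 4707 and 9651 reads (1.25). ERO1B, which reoxidizes the disulfide isomerases, had 260 and 504 reads (1.16). On the lower side, FKBP2, a short gene of 935 bases that encodes a luminal prolyl isomerase, had 977 and 436 reads (-0.95), and CLGN, a relative of calnexin, had 95 and 46 (-0.84).

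None of the 18 further ERAD genes and none of the 29 genes of translocation and glycosylation was more than 1.5-fold different in these libraries. Each of these genes had at least 100 reads. Over all genes of that depth 8.72% were more than 1.5-fold higher and 6.77% lower. For the ERAD genes the median was -0.020 on the log2 scale (0.046 with the trend with length removed). Of these genes 7 were higher and 11 lower, against 47.8% and 52.2% of all genes tested. When scaled by the total count, 13 were higher and 5 lower, beside 11020 and 8820 of the 19840 genes tested. Of the 29 genes of translocation and glycosylation, 23 were lower, against 52.2% of all genes tested. With total count scaling 21 were lower, against 8820 of the 19840 genes tested. The 29 genes had a median of -0.24. They include the signal recognition particle, the signal peptidase and the oligosaccharyltransferase, the complexes that act at the channel beside SEC61 and TRAP. After the trend with length was removed their median was -0.11. TMEM258 at -0.55 and KRTCAP2 at -0.51, small subunits of the oligosaccharyltransferase from genes of 411 and 547 bases, were lowest as counted. With the trend removed they stood at -0.12 and -0.13, and the lowest was TRAM2, a relative of the translocating chain-associated protein, at -0.52.

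**Figure D4:**
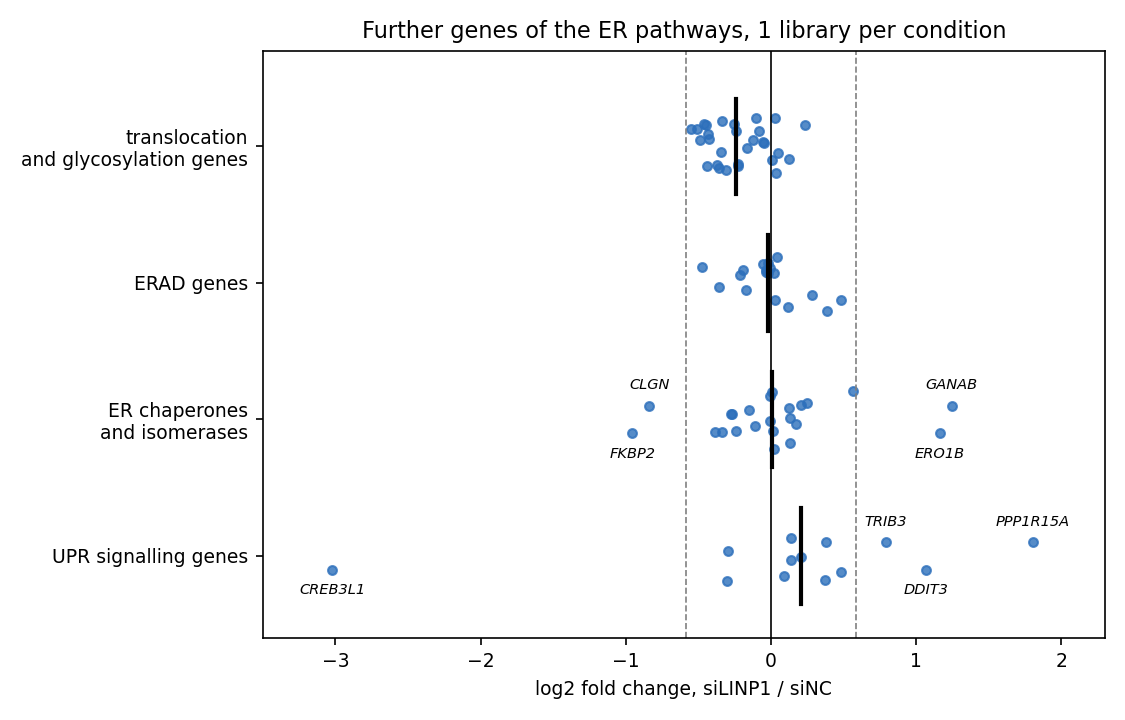
Log2 fold change of siLINP1 over siNC for 83 further genes of the ER pathways, 1 point per gene in 4 lists, with a vertical bar for each median (0.21, 0.0091, -0.020 and -0.24 from bottom to top). Dashed lines mark 1.5-fold, and the 8 genes beyond it are named next to their points.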

How the data were processed

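Gene counts of 2 libraries of HSC-1 cells, siNC and siLINP1, were analysed. Tophat2 (alignment, GRCh37/hg19) and HTSeq (counting) are the tools that the authors' methods name, and the submitters' processing notes also name HISAT, HISAT2 and Bowtie2. The deposited values are raw read counts per gene. The authors also deposited RPKM values, which differed from count divided by gene length and total count by at most 6e-11. Versions, annotation and strand setting are not given in the sources used here. Another 12 per-sample columns of the table were left out.

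The members and lists were chosen with earlier results of these data known. Genes with at least 10 reads over both libraries were kept. Log2 fold changes used median-of-ratios size factors (1.08 for siNC, 0.930 for siLINP1) and no pseudocount. Intervals (95%, Clopper-Pearson, on how a gene's reads divided between the libraries) cover counting error only. List medians have a distribution-free interval over genes. Differences between 2 genes have an exact conditional odds ratio interval. Named in full were the sensors, genes beyond 1.5-fold, the 2 of highest RPKM and the extremes of each role, and others after their values had been seen. Alternatives were total count (CPM) and edgeR TMM scaling, minimums of 1 and 100 reads, and pseudocounts of 1 and 5. The removal of a lowess trend with gene length (fraction 0.3), the promoter and the seed searches were added after the data were examined. Seed sites were read from the longest 3′UTR per gene in the GENCODE annotation of GRCh37. The calculations were tested on simulated counts. TMM factors came from edgeR 4.0.16 in R 4.3.3, the intervals from scipy 1.17.1 and the trend from statsmodels 0.14.6, under Python 3.11.15 with pandas 2.3.3, numpy 2.4.6 and matplotlib 3.10.9.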

Additional observations from a re-analysis of the deposited data

How the results depend on the processing

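The directions of the 36 ER genes were the same under both other scalings, both other minimums of reads and both pseudocounts, apart from DERL3, which has no value with a minimum of 100 reads. With the trend of gene length removed, 3 of the 36, CALR, SEL1L and SSR2, changed sign, and 1 in place of 3 was more than 1.5-fold lower, SSR1, with SDF2L1 and SEC61B no longer counted. Total count scaling moved the median log2 fold change of the ER genes from -0.15 to -0.068 and that of the further ER genes from -0.032 to 0.050, because it adds 0.082 to every gene. Both total count and TMM scaling put 2 ER genes in place of 1 above 1.5-fold. The summed reads of the ER genes had a log2 ratio of -0.082 relative to the total count, of -0.16 with size factors and of -0.14 with TMM library sizes. The minimum of reads moved the counts over all genes most: with at least 1 read 7048 were more than 1.5-fold higher and 6456 lower, and with at least 100 reads 1163 and 903. No paired analysis was possible because each condition had 1 library and no result comes from a test, and for the same reason no library could be left out. Depth limits DERL3, with 11 reads in all, and ERN1, with 369.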
